A study of Drosophila melanogaster with 4 samples.

Results

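The clusters described here are the short stretches enriched for H3K9me3 that lie scattered along arm 2L of Drosophila melanogaster, between the distal tip and the pericentric heterochromatin. They were taken as the clusters lying wholly between positions 300001 and 21011544 of 2L on FlyBase release 5, without those touching 20148259 to 20227581, a stretch that holds a piRNA source locus. This gave 446 of the 5083 clusters of ChIP replicate 1, 383 of the 4595 clusters of ChIP replicate 2, and 937 of the 7929 clusters of the list that belongs to the whole series, here called the combined set. The interval measured 20.6 Mb after the left-out 79.3 kb. The members made up 80.1% of the 2L clusters of replicate 1, 78.0% of those of replicate 2 and 84.9% of the combined ones.

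All libraries came from head nuclei of the wild-type strain Oregon-R. Heads were sieved from whole adults of a stage given as mixed adult, raised in population cages over a cycle of 22 days, and the tissue was fixed with formaldehyde; the sex is not given. There were 2 ChIP libraries and 2 input libraries, and the antibody is named as a new lot. Heads hold neurons, glia, eye, fat body and muscle cells, and a cluster list does not tell which of them carried the mark. The labels do not tell whether separate collections of flies were used for the replicates, and their spread may be technical only.

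Trimethylation of lysine 9 of histone H3 is written by SET-domain methyltransferases, among them Su(var)3-9 and eggless, and is bound by the chromodomain of heterochromatin protein HP1. The mark covers the repeat-rich DNA around the centromeres in long blocks. In the gene-rich arms it is known from much smaller islands, often at transposon insertions. The positions below are those of the reference assembly, which was made from a strain other than Oregon-R, and insertions particular to Oregon-R were not examined. No gene was assigned to a cluster, because the gene table used here is of release 6 and positions were not carried between releases.

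The interval was sparsely marked compared with the end of the arm next to the centromere. Replicate 1 clusters covered 5.19% of it and replicate 2 clusters 4.48%, a mean of 4.83% ± 0.498 (SD, n = 2). The combined clusters covered 10.5%. In the 2 Mb between the interval and the end of the arm sequence, the same lists covered 41.6%, 43.6% and 52.7%. Coverage there was higher than in the interval in every list, and its SD between the replicates was 1.38 points. In the 300 kb at the distal tip, 2.55% and 4.41% were covered, by 4 and 7 clusters. Cluster number in the interval was 21.6 per Mb in replicate 1 and 18.6 per Mb in replicate 2 (20.1 ± 2.16, SD, n = 2). The combined set held 45.4 per Mb. The lists give no read counts, so the depth behind them is unknown, and how far depth sets the difference in cluster number was not tested.

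Most of the scattered clusters had low scores within their own list. The score is the authors' value for each cluster, its scale is not stated, and it is used here mainly to order clusters of one list. Of the replicate 1 members 53 (11.9%) reached the median score of all clusters in that list, which was 0.827. Of the replicate 2 members 46 (12.0%) reached the median of 0.893, and of the combined members 226 (24.1%) reached 0.504. By definition 50% of a whole list does so.

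Widths were alike in the replicates. The medians were 1939 and 1929 bp, with the middle 50% of clusters between 1545 and 2623 bp in the first and between 1553 and 2571 bp in the second. The combined median was 1786 bp, with the middle 50% between 1324 and 2611 bp. The lists differed at the lower end: no member was narrower than 1309 bp in replicate 1 or 1302 bp in replicate 2, whereas 220 combined clusters (23.5%) were narrower than 1300 bp, down to 1001 bp. Wide clusters were few. In replicate 1, 16 clusters were 5 to 10 kb wide and 3 were wider; in replicate 2 these counts were 19 and 3, and in the combined set 51 and 6. Within each list wider clusters tended to have higher scores, with a Spearman rho of 0.635 across the 446 clusters of replicate 1, 0.664 across the 383 of replicate 2 and 0.425 across the 937 of the combined set. Both measures come from the same library and clusters are not independent, so rho is a description. The tendency did not reach the narrow end of the combined set, where the median score was 0.438 under 1300 bp and 0.437 at 1300 bp and over.

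The widest scattered cluster was the same in all lists. It spanned 22.4 kb in the combined set (20098812 to 20121260, score 1.34) and was 97.7% covered by a single cluster of replicate 1 and 99.8% covered by one of replicate 2. It ended 27.0 kb before the left-out interval. The next widest combined clusters lay close together, at 5158287 to 5175553 (17.3 kb, score 0.930) and 5127123 to 5139412 (12.3 kb, score 1.02). The replicates covered 82.6% ± 6.90 and 89.4% ± 3.94 of them (SD, n = 2). After them came one at 7296159 to 7308447 (12.3 kb, score 0.599), which corresponded to 3 clusters of replicate 1 and to 2 of replicate 2; these covered 57.4% and 54.9% of it. The fifth ran from 3576800 to 3587991 (11.2 kb, score 0.781), of which replicate 1 covered 62.1% and replicate 2 covered 45.1%.

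Taking only sequence inside clusters of both replicates, the widest stretch was 20099246 to 20121167, of 21.9 kb. Stretches of 11.4 kb (5162426 to 5173808) and 10.7 kb (5128200 to 5138849) came next. Those of 8.33 kb (16782104 to 16790432) and of 7.80 kb (6932274 to 6940068) lay elsewhere on the arm. The first 3 lie in the widest combined clusters named above. The clusters with the highest scores were narrower. A cluster of 7452 bp in replicate 1, at 3251793 to 3259244, scored 1.79, and it overlapped a cluster of replicate 2 scoring 1.92. Another, of 3824 bp at 6992735 to 6996558, scored 1.57 in replicate 1 and its partner in replicate 2 scored 1.95. These loci held the first and second rank by score among the members in both replicates, in opposite order.

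Spacing between neighbours was very uneven. The median gap from one cluster to the next was 16.6 kb in replicate 1 and 19.5 kb in replicate 2 (18043 bp ± 2040, SD, n = 2), against means of 43.6 kb and 50.8 kb. The SD of the gaps was 1.48, 1.45 and 1.71 times their mean in replicate 1, replicate 2 and the combined list. Short and long gaps were both common. Of 444 gaps in replicate 1, 44 (9.91%) were at most 1 kb, 70 lay between 1 and 5 kb, and 65 (14.6%) exceeded 100 kb. Of 381 gaps in replicate 2, 28 (7.35%) were at most 1 kb, 70 lay between 1 and 5 kb, and 65 (17.1%) exceeded 100 kb. The gaps over 100 kb held 58.3% of all gap sequence in replicate 1 and 63.3% in replicate 2. The combined set had a median gap of 6356 bp, and 42 of its 935 gaps exceeded 100 kb.

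**Figure D1:**
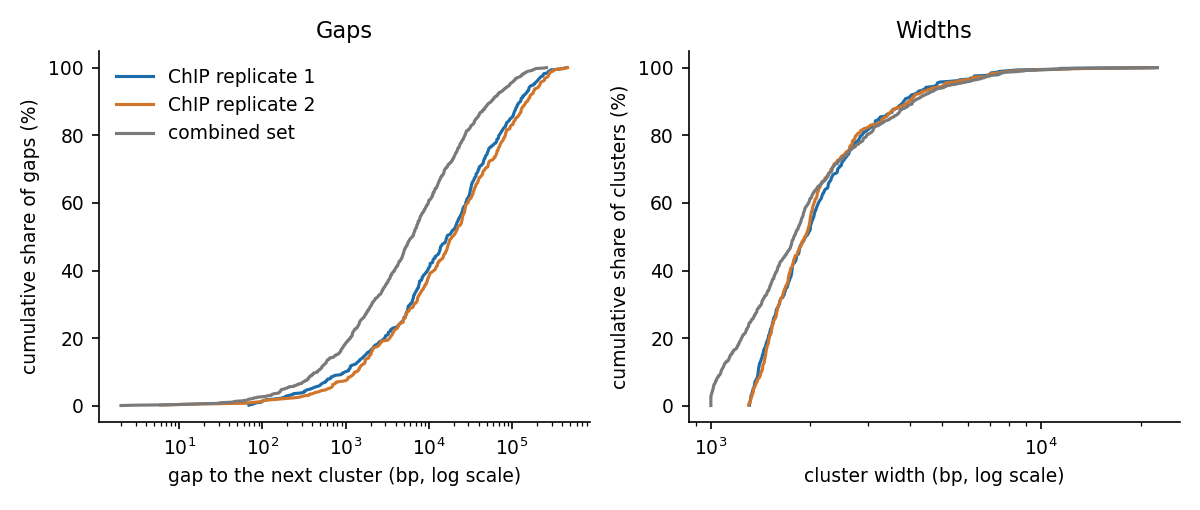
Cumulative share of gaps between neighbouring clusters (left, bp on a log scale) and of cluster widths (right, bp on a log scale) for the 2 ChIP replicates and the combined set. The replicate curves lie close together, the combined set has shorter gaps (median 6356 bp), and its width curve starts at 1001 bp where those of the replicates start at 1309 and 1302 bp.

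The longest stretch with no cluster in either replicate ran from 17556000 to 17977544, or 422 kb. Others followed at 15902773 to 16241770 (339 kb) and 2440378 to 2737301 (297 kb). The combined set had 1, 5 and 4 clusters wholly inside these 3 stretches, and 2, 0 and 2 more that reached in across an edge; together they covered 0.363%, 1.77% and 1.99% of the sequence. Stretches of this kind longer than 200 kb numbered 12 and made up 15.3% of the interval, and the 66 longer than 100 kb made up 50.9%. Mappability was not examined, so these stretches cannot be read as unmarked chromatin.

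At the other extreme, clusters formed short runs. A run was taken as at least 3 successive clusters with no gap over 10 kb. Replicate 1 had 45 such runs holding 167 clusters (37.4%), replicate 2 had 29 holding 123 (32.1%), and the combined set had 95 holding 588 (62.8%). Clusters with no neighbour within 10 kb numbered 161 (36.1%), 158 (41.3%) and 201 (21.5%) in the same order of lists. Most replicate runs were small: 27 of 45 and 15 of 29 had exactly 3 clusters. They were 8.44 to 45.5 kb long in replicate 1, with a median of 17.0 kb, and 7.76 to 66.9 kb long in replicate 2, with a median of 20.6 kb. The share of clusters in runs depends on the definition and was 15.0% with gaps of at most 5 kb and 51.2% with gaps of at most 20 kb (means of both replicates).

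Clusters in runs had about the same width and score as isolated ones. In replicate 1 the median width was 1972 bp in runs and 1983 bp for isolated clusters, and the median score was 0.629 for both. In replicate 2 the widths were 1975 and 1855 bp and the scores 0.642 and 0.633. The share found in the other replicate was 63.5% in runs and 59.0% for isolated clusters of replicate 1. For replicate 2 the order was the opposite, with 67.5% in runs and 70.3% for isolated clusters.

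The runs of the 2 libraries coincided in part. Every run of replicate 1 held at least 1 cluster of replicate 2 and every run of replicate 2 held at least 1 of replicate 1. However, only 21 of the 45 runs of replicate 1 met a run of replicate 2, and 21 of the 29 runs of replicate 2 met one of replicate 1. The run with most clusters in replicate 1 lay at 7291749 to 7335096, with 10 clusters over 43.3 kb, where replicate 2 had 5 and the combined set 7. Replicate 1 clusters covered 46.0% of that stretch, replicate 2 clusters 28.3% and combined ones 80.3%, so the combined list had fewer but wider clusters there than replicate 1. Its next run, at 17498773 to 17523788, had 6 clusters against 2 in replicate 2. After these, 6 runs tied at 5 clusters, and replicate 2 had from 1 (6809771 to 6833353) to 8 (9579519 to 9611839) clusters in them; the first along the arm, at 3604783 to 3627183, had 3.

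In replicate 2 the run with most clusters was longer, 66.9 kb at 5392240 to 5459095. It held 12 clusters against 6 in replicate 1 and 15 in the combined set, and its coverage was 32.7% in replicate 2 and 17.1% in replicate 1. The next, at 9577118 to 9610464, had 9 clusters against 5 and was 64.5% covered against 40.0%. After these, 2 runs tied at 6 clusters: that at 586198 to 613090 had 6 against 2 and was 44.4% covered against 11.1%, and that at 19537515 to 19565518 had 6 against 4 and was 52.5% covered against 44.7%. These runs were chosen for being the richest of their own list, so the mostly lower counts in the other replicate are a description.

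The combined set had longer chains. Its 11 runs of at least 10 clusters held 206 clusters (22.0%), where replicate 1 had 62 and replicate 2 had 74. The richest had 35 clusters over 167 kb (5358655 to 5525515) and was 51.8% covered, with 12 clusters in replicate 1 (14.0% covered) and 19 in replicate 2 (21.7% covered). A run of 31 clusters over 126 kb (3517710 to 3643728) was 60.1% covered, with 10 clusters in each replicate. One of 27 clusters over 127 kb (11343335 to 11470649) was 41.0% covered, with 5 and 7. Further along, 22 clusters lay over 116 kb (12575974 to 12691744), with 6 and 7 in the replicates, and 21 over 89.0 kb (18755703 to 18844705), with 4 in each. Of the 95 combined runs, 77 held clusters of both replicates, 14 held clusters of 1 replicate and 4 held none.

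**Figure D2:**
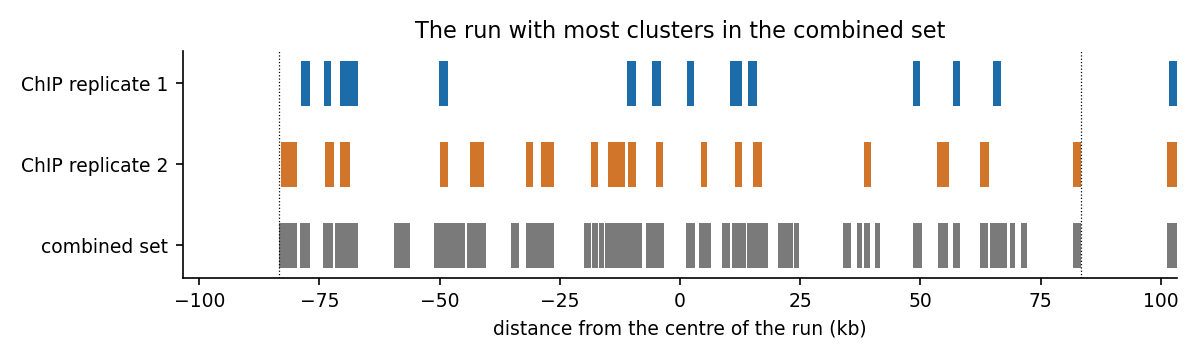
Clusters of each list (rows) drawn to scale across the richest run of the combined set, against the distance from its centre in kb; dotted lines mark the ends of the run. Its 35 combined clusters cover 51.8% of 167 kb, and the replicates have 12 and 19 clusters there, several at different places.

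Density along the arm was followed in 41 windows of 500 kb and a shorter last one. Window counts ran from 2 to 21 in replicate 1 (median 10), from 2 to 24 in replicate 2 (median 9) and from 6 to 48 in the combined set (median 20). The variance of the counts was 2.36, 2.35 and 5.27 times their mean in the same order. The replicates followed each other closely at this scale: counts differed by at most 2 in 27 of 41 windows, replicate 1 had more in 24 and replicate 2 in 11, and Spearman's rho across the 41 windows was 0.872. The windows share a genome assembly and its mappability between libraries, so rho describes the profile only.

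The densest windows were the neighbours 5300001 to 5800000, with 20 and 24 clusters in replicates 1 and 2, and 4800001 to 5300000, with 19 and 17. They were followed by 6800001 to 7300000, with 19 and 15, by 7300001 to 7800000, with 21 and 11, and by 1800001 to 2300000, with 16 and 15. The last of these shared its mean of 15.5 with 6300001 to 6800000, where the counts of 21 and 10 were the furthest apart of all full windows; it was placed ahead by its coverage, 7.27% against 7.16%. The 5 windows placed first are 12.1% of the interval and held 21.3% and 21.4% of the replicate 1 and replicate 2 clusters and 16.8% of the combined ones; they were picked for their counts in the replicates. The fewest clusters were in 15800001 to 16300000, with 2 and 3, in 2300001 to 2800000, with 3 in each, and in 12800001 to 13300000, with 4 and 2.

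**Figure D3:**
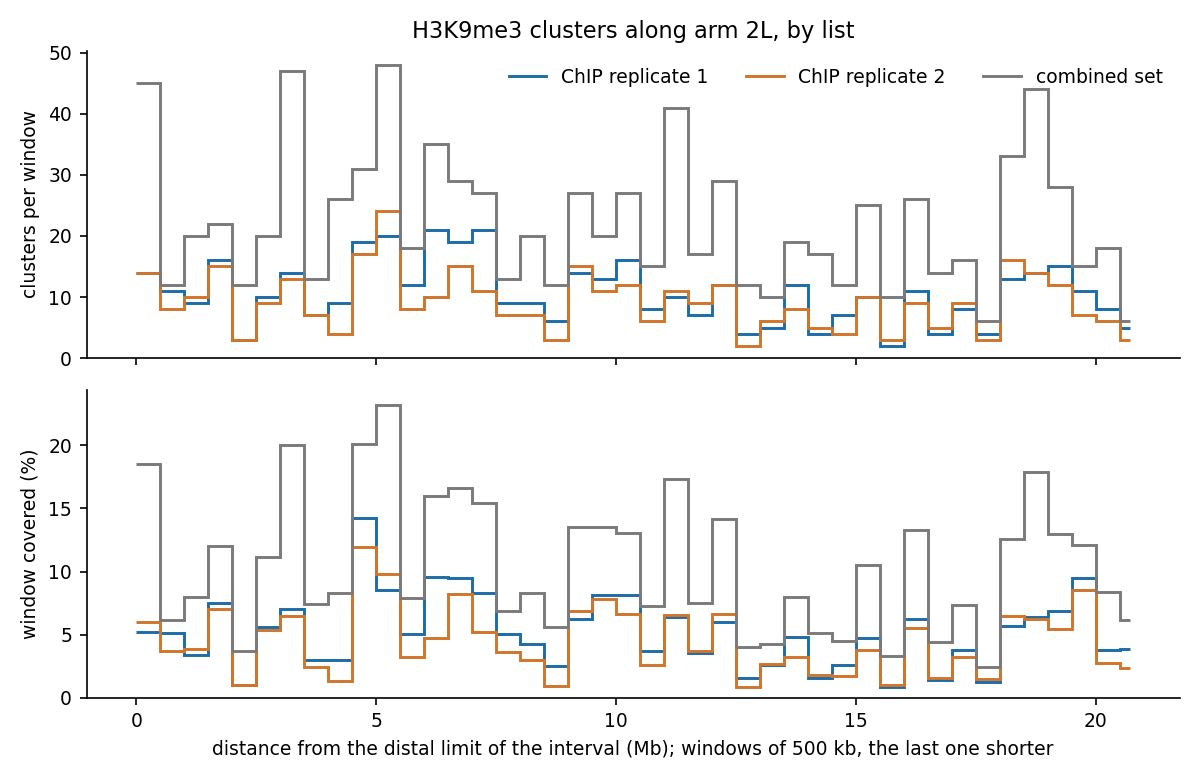
Cluster number (top) and percent of sequence covered (bottom) in windows of 500 kb along the interval of arm 2L, against the distance from its distal limit in Mb, for the 2 ChIP replicates and the combined set. Both replicates are high in one stretch, with 20 and 24 clusters in one window and 14.2% and 12.0% coverage in the window before it; the combined set has further peaks of 47, 45, 44 and 41 clusters where the replicates have 10 to 14.

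The neighbouring pair of densest windows differed in makeup. From 4800001 to 5300000 replicate coverage was the highest of all windows, at 14.2% and 12.0%. The replicates agreed on much of it, with a Jaccard index (sequence in both over sequence in either) of 0.676. Most of that came from 5100001 to 5200000, which was 39.6% and 37.1% covered by 7 and 6 clusters, the wide ones among them. From 5300001 to 5800000 the clusters were more numerous, but coverage was 8.53% and 9.80% and the index 0.313; 12 of the 20 clusters of replicate 1 and 12 of the 24 of replicate 2 were found in the other. In the combined set the order by coverage was the opposite, with 20.1% from 4800001 to 5300000 and 23.2% from 5300001 to 5800000. The window 19800001 to 20300000 came next by mean replicate coverage, at 8.99% ± 0.663, with 11 and 7 clusters. Without the single widest cluster its coverage was 3.72% ± 0.742.

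In larger steps, the distal part of the interval was denser than the proximal part in both replicates. Split into 4 sections of equal length, it had 23.6, 28.6, 15.8 and 18.4 clusters per Mb in replicate 1 from the distal to the proximal section. Replicate 2 had 22.4, 20.5, 14.5 and 16.9, and the combined set 52.9, 47.7, 38.8 and 42.2. The means of the replicates were 23.0 ± 0.819, 24.5 ± 5.74, 15.2 ± 0.956 and 17.7 ± 1.11 (SD, n = 2). The distal section lay above both proximal ones in every list, and the section next to it varied most between replicates. Replicate 1 was the higher in every section, so the SDs do not measure the spread of a difference between sections. In every list the lowest density was in the section from 10655773 to 15833658, so the clusters did not thin out or gather steadily toward the centromere.

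About 2 in 3 clusters were found again in the other library at 1 bp of overlap. Of the 446 clusters of replicate 1, 277 (62.1%, Wilson 95% interval 57.5 to 66.5%) were found in replicate 2, against a background of 75.3% over all sequences and 66.6% over the whole of 2L. Of the 383 clusters of replicate 2, 272 (71.0%, 66.3 to 75.3%) were found in replicate 1, against 79.0% and 72.1%. The intervals cover counting error only and treat clusters as independent, which neighbours are not. The background includes the pericentric blocks, whose part in the difference was not tested. The replicates shared 653 kb of the 1342 kb in either list, a Jaccard index of 0.487.

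Wide clusters were found again far more often than narrow ones. Under 1.5 kb, 28 of 93 clusters of replicate 1 (30.1%, 21.7 to 40.1%) and 35 of 75 of replicate 2 (46.7%, 35.8 to 57.8%) were found in the other. At 2 to 3 kb the shares were 75.8% (67.8 to 82.3%) and 87.4% (79.6 to 92.5%). At 3 to 5 kb they were 61 of 63 (96.8%, 89.1 to 99.1%) and 44 of 46 (95.7%, 85.5 to 98.8%), and at 5 kb and over 19 of 19 and 22 of 22. By score quartile, the share was 50.9% in the lowest and 81.3% in the highest quartile of replicate 1, and 56.3% and 92.7% in replicate 2. In replicate 1 the quartile above the lowest, at 46.8%, was not above it in share. A wide cluster has more bases with which to meet another, and the level of overlap by position alone was not computed here.

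**Figure D4:**
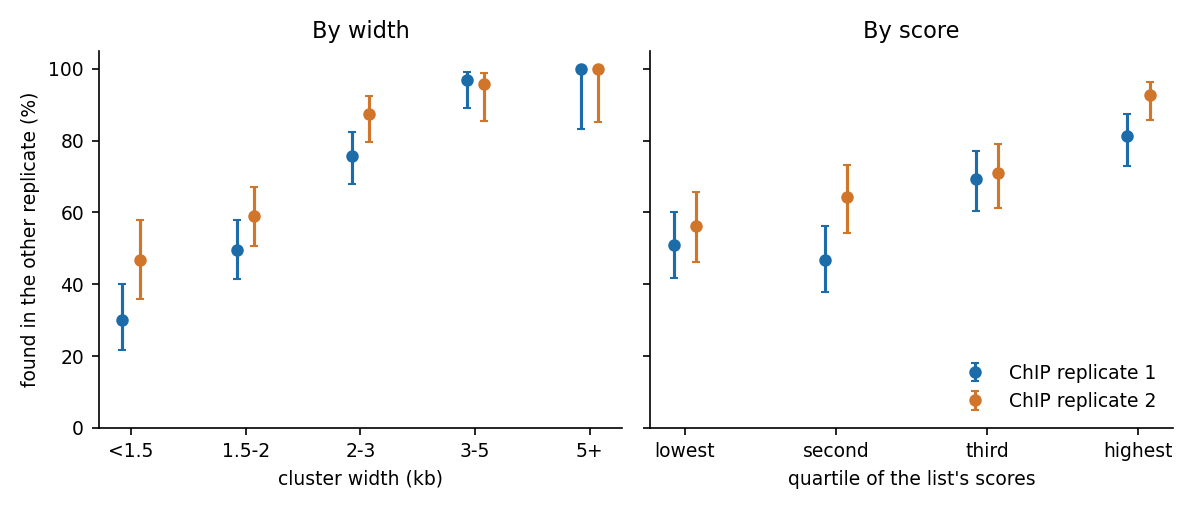
Percent of clusters found in the other replicate (1 bp of overlap) by cluster width in kb (left) and by quartile of the list's own scores (right); points are the share in each ChIP replicate and bars its Wilson 95% interval. The share climbs from 30.1% and 46.7% under 1.5 kb to 19 of 19 and 22 of 22 at 5 kb and over.

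Where the replicates did meet, the cluster edges mostly lay close together. There were 237 pairs in which 1 cluster of each list met only the other. Their centres lay a median of 157 bp apart, their starts 188 bp and their ends 172 bp, and in 156 pairs (65.8%) both edges were within 500 bp. Replicate 1 was the wider in 135 pairs (57.0%). Across the pairs, the order of the scores had a Spearman rho of 0.723 between the lists and that of the widths one of 0.680. Splitting was uncommon: 12 clusters of replicate 1 met 2 of replicate 2, and 17 of replicate 2 met 2 of replicate 1.

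The clusters that did not meet were mostly narrow, and nearly all had a counterpart in the combined set. In replicate 1 the 169 that did not meet were 1584 bp wide at the median and those that did were 2266 bp; for the 111 of replicate 2 the medians were 1583 and 2093 bp. Their median scores were 0.587 against 0.647 in replicate 1 and 0.586 against 0.661 in replicate 2. Within the combined set, 163 of the 169 (96.4%) and 106 of the 111 (95.5%) had an overlapping cluster. Over all members the share was 98.7% in each replicate, and that over all sequences is not given here. Some of those that did not meet were near misses: 26 (15.4%) and 25 (22.5%) lay within 1 kb of a cluster of the other replicate. The median distance to one was 8120 bp for replicate 1 and 4884 bp for replicate 2, and 14 and 8 were more than 50 kb away. Replicate 1 alone had as its widest clusters 3559 bp (3048923 to 3052481), 3018 bp (8825919 to 8828936) and 2978 bp (20724211 to 20727188). For replicate 2 alone they were 3943 bp (9946731 to 9950673), 3331 bp (5359061 to 5362391) and 2972 bp (18861344 to 18864315).

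Among the 937 combined clusters, 438 (46.7%, Wilson 95% interval 43.6 to 49.9%) had no partner in either replicate, against 38.7% over all sequences and 45.5% over the whole of 2L. A partner in both replicates was found for 263 (28.1%, 25.3 to 31.0%), against 37.8% and 30.1%. Replicate 1 alone accounted for 147 (15.7%) and replicate 2 alone for 89 (9.50%). Those found in both had a median width of 3315 bp and held 47.8% of the covered sequence; those found in neither had a median of 1326 bp and held 29.0%. Of the 220 clusters under 1300 bp, 204 (92.7%) were found in neither and 0 in both, while of the 57 of at least 5 kb, 53 were found in both and 0 in neither. The replicate lists hold no member as narrow as 1300 bp, so such a combined cluster could only meet one wider than itself. Clusters found in neither lay a median of 7368 bp from the nearest replicate cluster, and 178 (40.6%) lay within 5 kb of one. The widest of them were 3970 bp (3830743 to 3834712), 3878 bp (16474501 to 16478378) and 3487 bp (364439 to 367925).

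The 5 highest-scoring members of the combined set were all narrow and all found in neither replicate. They lay at 10593259 to 10594259 and 12787305 to 12788305, both with a score of 3.42, at 16141771 to 16142779 (3.07), at 11567415 to 11568487 (2.48) and at 17199182 to 17200189 (2.35). Their widths were 1001 to 1073 bp. The nearest cluster of either replicate was at least 19145 bp away from each. Of the 22 combined clusters scoring above 1, 8 were found in neither replicate, with a median width of 1041 bp, and 13 in both, with a median width of 5591 bp. High scores in this list thus came from wide clusters that both replicates had and from narrow ones that neither had, with 1 cluster in a single replicate.

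**Figure D5:**
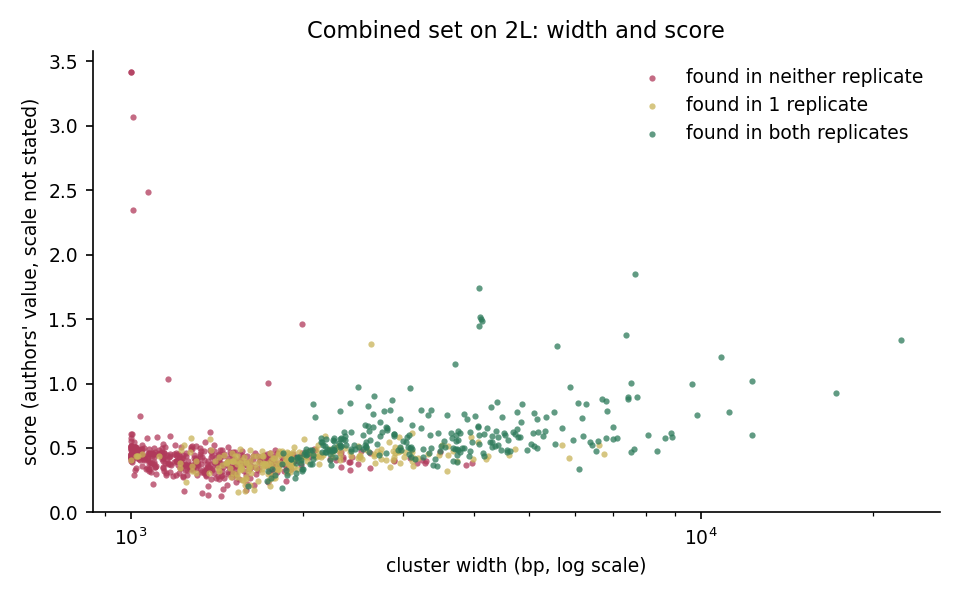
Width (bp, log scale) and score (the authors' value, scale not stated) of the 937 combined clusters on 2L, coloured by whether they were found in neither, 1 or both replicates. Clusters in both are mostly above 2 kb, and the 5 highest scores, 2.35 to 3.42, belong to clusters of 1001 to 1073 bp found in neither.

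Measured between the same limits, the scattered clusters of 2L had values close to those of 3L and 3R. Density was 20.1 ± 2.16 per Mb on 2L (SD, n = 2); 3L had 19.4 ± 2.51, 3R had 18.9 ± 2.18 and the X had 36.1 ± 1.79. Coverage was 4.83% ± 0.498, 4.42% ± 0.617, 4.16% ± 0.504 and 8.79% ± 0.568. Replicate 1 lay above replicate 2 on every arm in both measures, so these SDs do not measure the spread of a difference between arms. Within each replicate both measures had the order X, 2L, 3L and 3R. Density was 37.3, 21.6, 21.2 and 20.5 per Mb in replicate 1, and 34.8, 18.6, 17.7 and 17.4 in replicate 2. In the combined set 3R lay above 2L in density, with 47.6 against 45.4 per Mb. The share of clusters in runs was 34.8% ± 3.77, 31.5% ± 1.33, 29.5% ± 1.41 and 47.4% ± 0.0178 in the same order. The median width was 1934 bp ± 7.07 on 2L against 1917 bp ± 24.0, 1871 bp ± 1.77 and 1963 bp ± 31.8. It was lowest on 3R, but the SD of 2 medians ran from 1.77 to 31.8 bp across arms and is too unstable to weigh this difference. The share found in the other replicate was 62.1% and 71.0% on 2L, 60.2% and 73.3% on 3L, 59.2% and 69.7% for 3R, and 64.6% and 70.3% for the X. No test of these differences was made, and 2R was not compared.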

How the data were processed

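H3K9me3 ChIP-seq of adult Oregon-R head nuclei was analysed from 3 deposited cluster lists, 1 for each of the 2 ChIP replicates and 1 for the series. The submitters' processing notes name Bowtie 0.12.7, and the coordinates refer to FlyBase release 5, per the file headers. Which caller and threshold gave the clusters, how the inputs entered, and how the combined set was made is not given in the sources used here. The score deposited by the authors has no stated scale and was used only within a list to rank or filter, or set beside that of an overlapping cluster. Start and end positions in the deposited lists are 1-based.

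Members, windows (a cluster belongs to the window of its midpoint), gaps, runs, and overlaps of at least 1 bp with any cluster on the arm were derived in Python 3.11.15 with scipy 1.17.1 and numpy 2.4.6, and plotted with matplotlib 3.10.9. Gaps across the left-out stretch were not counted. The code was tested on simulated lists. Regions named by position were the 5 widest and 5 highest-scoring combined clusters, the 5 widest shared stretches, the 5 densest and 3 sparsest windows, the 3 richest runs per replicate, the 3 longest free stretches and the 3 widest clusters of 1 or neither replicate; ties were ordered by coverage for windows and by position for runs. Other named regions (the 5 richest combined runs, the highest-scoring replicate clusters, a window named for its coverage and the steps inside the densest pair of windows) were chosen after their values were seen. The members and all rules were chosen with earlier results of these data known. There is no second condition and n = 2, so no test was made; depth is unknown.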

Additional observations from a re-analysis of the deposited data

How the results depend on the processing

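Each of 10 summary values was recomputed under alternatives, 64 values in all, of which 38 moved. The rule for moving was a set fold change for cluster number and 1 SD of the replicates for the other list measures. It was the Wilson interval for the shares found and rounding to 2 digits for the Jaccard index. The tally rests on these unlike rules. With joining, 20.9% against 21.4% in the densest windows counted as moved, and 378.5 against 414.5 clusters did not. Of the 26 that did not move, 10 could not have done so because no cluster was narrower than 1 kb. Another 10 came from leaving out one of the 2 replicates. For all of these but the cluster number, the value left always stays within 1 SD of the mean and could not have moved. The remaining 6 came from joining clusters up to 1 kb apart; among them the Jaccard index, which has no spread, was 0.491 against 0.487. Keeping members that reached their list's median score, the mean number fell to 49.5, coverage to 1.17%, the share in runs to 3.26%, and the median width became 4017 bp and the median gap 227119 bp. The 5 densest windows then held 34.4%, the shares found were 67.9% (replicate 1) and 78.3% (replicate 2), and the Jaccard index was 0.635. Of the combined clusters kept, 73.5% were in neither replicate list after the cut. The cut applied to all 3 lists, so 226 combined members were set against 53 and 46 replicate members. Partners lost to the cut thus enter the 73.5%, which does not describe the full replicate lists. With clusters up to 1 kb apart joined, the median width was 2019 bp, the median gap 23521 bp, the share in runs 25.5% and that in the densest windows 20.9%. In the combined set the number was 937, coverage 10.5%, median width 1786 bp, median gap 6356 bp, 62.8% lay in runs and 24.0% in its own densest windows. The share in runs was 15.0% and 51.2% with gaps of 5 and 20 kb, and 61.3% and 12.7% with at least 2 and 5 clusters. The share in the densest windows was 27.0% for 10 windows of 250 kb, 15.5% for 2 of 1 Mb and 25.4% with the grid moved by 250 kb; each replicate alone gave 22.4% to 22.7%. With overlap of at least 50% of the cluster, 56.5% and 65.5% were found and 51.0% of combined clusters were in neither; with 50% of both clusters, 52.9%, 61.6% and 51.2%. Counting clusters within 1 kb as found, a rule added after seeing the data, gave 67.9%, 77.5% and 40.9%. The cause of these shifts was not tested, apart from what each rule removes or adds by construction. No paired analysis was possible because the inputs that share replicate numbers with the ChIP libraries have no cluster list here. Leaving out either replicate gave a cluster number of 383 or 446, coverage of 4.48% or 5.19% and a share in runs of 32.1% or 37.4%. Depth is unknown and limits every count.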

Other observations

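The cluster with the third-highest score of replicate 2 was found in that replicate alone. It is 1346 bp wide (5176280 to 5177625) and scored 1.83, whereas the next highest score among clusters of replicate 2 that replicate 1 lacked was 0.897. It lies in the densest part of the interval, 2138 bp beyond the end of a 13.4 kb cluster of the same replicate (5160721 to 5174141). In replicate 1 the nearest clusters are 2471 bp before it and 1809 bp after it. The combined set has a cluster of score 1.30 over it, from 5175913 to 5178549.

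Scores repeat exactly among the members. In replicate 1, 19 score values were each shared by at least 2 clusters, 40 clusters in all; in replicate 2 there were 13 such values with 31 clusters, and in the combined set 38 with 87. The top score of the combined set, 3.42, is one of them and belongs to 2 clusters of 1001 bp, which is also the smallest width in that list over all sequences. In the replicate lists the smallest width over all sequences was 1301 bp and 1242 bp.

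Few combined clusters held several clusters of a replicate. Of the 937, 34 met at least 2 of replicate 1 and 26 met at least 2 of replicate 2, with up to 3 in one. Of the members of replicate 1, 440 (98.7%) overlapped a combined cluster, and of those of replicate 2, 378 (98.7%) did.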
